A study of Mus musculus with 3 samples.

Results

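Chemokine ligand genes were read from 3 expression arrays of macrophages in the 4T1 model, 1 array per group. Members were the genes whose single array symbol was Ccl or Cxcl with a number, together with *Pf4*, *Ppbp*, *Cx3cl1* and *Xcl1*. These were 35 of the 18193 genes on the array. Of them, 29 lay above a log2 level of 5.3 on at least 1 array, the level that sensory receptor genes seldom passed and that served as the floor. mTAMs were tumor-associated macrophages from the metastatic lung and pTAMs those from the matched primary tumor, both taken 5 weeks after 4T1 mammary carcinoma cells had been placed in the fat pad of BALB/c mice aged 5 to 6 weeks. BMDM were macrophages differentiated in culture from the bone marrow of healthy mice. Cells of every group were sorted as positive for CD11b and F4/80, after enzymatic digestion of tumor or lung in the case of TAMs. Digestion and culture cannot be told apart from the difference between TAMs and BMDM. The sources used here do not say whether the sort for the arrays also used Ly6C, nor how many mice were pooled for an array. There were no replicates. The differences below therefore carry no error across animals and no test, and their precision is limited by the number of arrays.

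Chemokines are small secreted proteins that guide leukocytes by binding receptors of the G protein-coupled family. They are named for the spacing of their conserved cysteines as CXC, CC, CX3C and XC ligands. CXC ligands with an ELR motif act on *Cxcr2* and draw neutrophils, whereas those induced by interferon act on *Cxcr3* and draw activated T cells and NK cells. Many CC ligands act on *Ccr1* or *Ccr2* and draw monocytes and other myeloid cells, and macrophages are a well-known source of them. In breast cancer models, chemokine ligands are known for their part in drawing monocytes to the primary tumor and to the lung.

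The 3 arrays gave 45037 log2 values each, with medians of 5.43 in mTAMs, 5.43 in pTAMs and 5.36 in BMDM. All 9 macrophage markers on the array lay above the floor in every group. Markers of other cells did so as well. The 10 neutrophil markers had summed linear levels of 76720.8 in mTAMs, 33197.8 in pTAMs and 1703.9 in BMDM, with 10, 10 and 8 of them above the floor. The 6 lung epithelium markers summed to 5281.5 in mTAMs, 265.9 in pTAMs and 231.4 in BMDM, the 7 alveolar macrophage markers to 15614.7, 2868.2 and 435.1, the 8 fibroblast markers to 4502.5, 807.5 and 271.0, the 6 mast cell or basophil markers to 6184.5, 1142.7 and 202.3, the 4 eosinophil markers to 371.1, 43.5 and 65.9, and the 7 markers of epithelium or carcinoma to 1787.9, 3502.4 and 245.8. Of these sums, that of epithelium or carcinoma was highest in pTAMs and the others in mTAMs. The lung epithelium sum in mTAMs rested mainly on *Scgb1a1*, and 2 of the 6 markers, *Scgb1a1* and *Scgb3a2*, were called higher in mTAMs than in pTAMs. The alveolar macrophage sum rested mainly on *Chil3*, at 13.50 in mTAMs, and the mast cell or basophil sum on *Hdc*, at 12.40. The eosinophil sum rested on *Prg2*, at 8.30 in mTAMs, the only marker of that list above the floor. Called higher in mTAMs than in pTAMs were all 7 alveolar macrophage markers and 5 of 5 mast cell or basophil markers compared. Of all genes, 5.36% were so called. The calls of *Siglecf*, *Marco*, *Krt79*, *Cpa3*, *Mcpt8* and *Ms4a2* used pTAMs values below the floor. Against the floor they ranged from at least 1.03-fold higher in *Ms4a2* to at least 12.2-fold higher in *Siglecf*. The part of these other cell types in the chemokine differences was not tested. In bulk samples, fewer cells of a type and less RNA per cell cannot be told apart.

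The chemokine ligands were mostly higher in TAMs than in BMDM and mostly highest in pTAMs. Of the 29 ligands above the floor, 7 had their highest value in mTAMs, 16 in pTAMs and 5 in BMDM, and *Cxcl17* had the same value in mTAMs and pTAMs. These counts include small leads, such as that of *Cx3cl1*, with 6.56 in pTAMs and 6.51 in BMDM. The share of all genes highest in each group was not computed. A difference of at least 2-fold was called higher or lower. In mTAMs against BMDM, 16 of 27 ligands compared were higher, 59.3%, where 11.5% of all 11945 genes compared were. Another 4 were lower, 14.8%, which is near the background of 14.4%. In pTAMs against BMDM, 16 of 28 were higher, 57.1%, against 8.78% of all 11859 genes. In that comparison 0 ligands were lower, against 7.5% of all genes. The median difference of the ligands was 1.32 in mTAMs minus BMDM and 1.41 in pTAMs minus BMDM, where all genes had medians of -0.11 and -0.05. When values below the floor were set to 5.3, these ligand medians were 1.03 and 1.06, and 14 ligands were higher in each comparison, without *Cxcl15* and *Ccl17* in mTAMs and without *Cxcl5* and *Ccl22* in pTAMs. Both comparisons use the same BMDM array, so their counts are not independent. Under cyclic loess normalization the median of all genes in mTAMs minus BMDM moved to 0.0012, and the higher share of all calls was 55.1% there, against 44.4% with the deposited values.

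**Figure D1:**
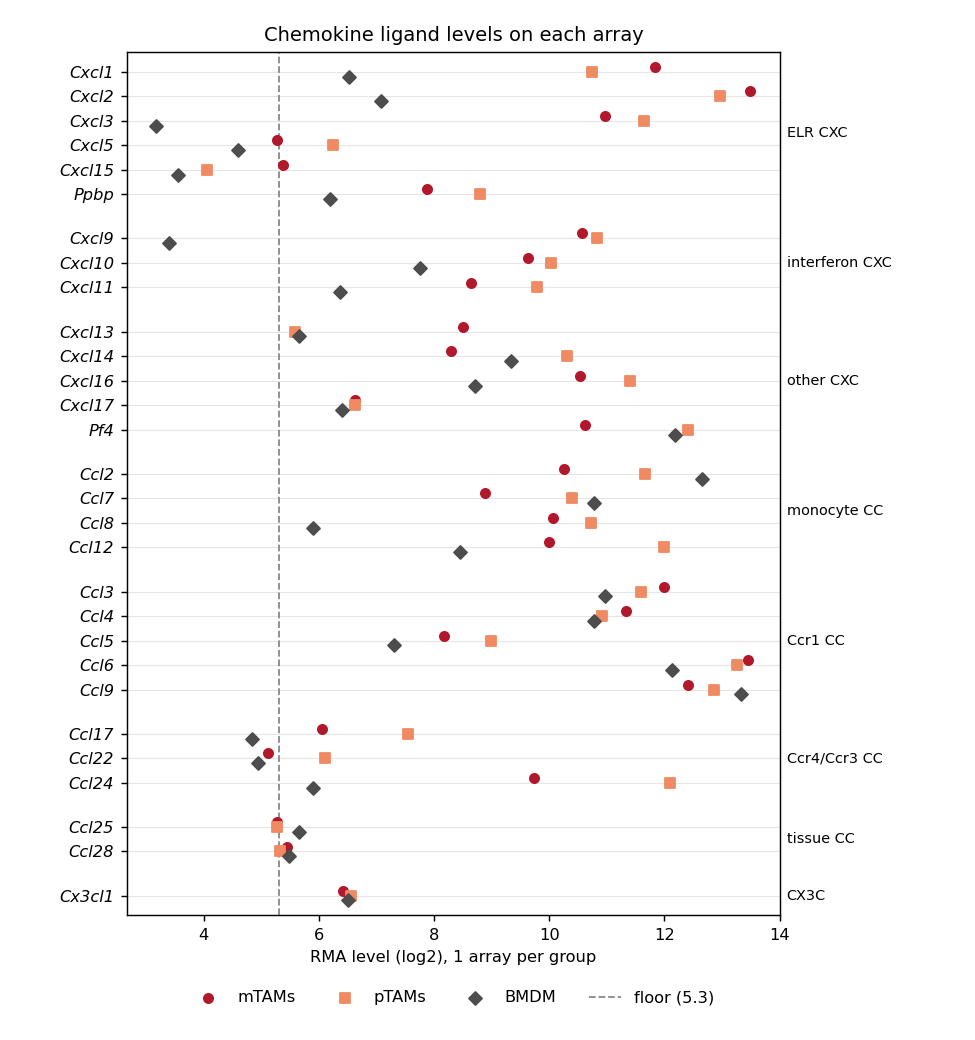
RMA level (log2) of the 29 chemokine ligand genes above the floor, with 1 array each for mTAMs (circles), pTAMs (squares) and BMDM (diamonds), grouped by role, and a dashed line at the floor of 5.3. All ELR and interferon-induced CXC ligands lie to the right of BMDM on both TAM arrays, *Cxcl5* and *Cxcl15* with only 1 value above the floor, whereas *Ccl2*, *Ccl7* and *Ccl9* are highest in BMDM.

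The neutrophil-attracting CXC ligands had the highest group medians of difference between TAMs and BMDM, 5.31 in mTAMs minus BMDM and 4.22 in pTAMs minus BMDM. *Cxcl2* had a level of 13.49 in mTAMs, 12.96 in pTAMs and 7.08 in BMDM. It was 85.0-fold higher in mTAMs and 58.9-fold higher in pTAMs than in BMDM. *Cxcl1* had a level of 11.83 in mTAMs, 10.74 in pTAMs and 6.52 in BMDM. It was thus high on both TAM arrays and low in BMDM, by 39.7-fold and 18.6-fold, and 2.13-fold higher in mTAMs than in pTAMs. *Cxcl3* had a level of 10.97 in mTAMs, 11.64 in pTAMs and 3.18 in BMDM. The BMDM value lay below the floor, and measured against the floor *Cxcl3* was at least 50.9-fold higher in mTAMs and at least 81.0-fold higher in pTAMs. In contrast to *Cxcl1*, *Cxcl3* differed by -0.67 in mTAMs minus pTAMs, short of the 2-fold threshold.

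These 3 genes lie close to each other on mouse chromosome 5, in a row of protein-coding genes that runs *Cxcl5*, *Ppbp*, *Pf4*, *Cxcl3*, *Cxcl15*, *Cxcl1*, *Cxcl2* in the RefSeq annotation of GRCm38.p6. Their promoters are shown because the genes stood out together in both TAM groups and because the same letters occur just upstream of each start. The sequences are from RefSeq, GRCm38.p6, plus strand, and cover bases 100 to 1 before the start of the gene. Capitals mark matches to the NF-kappaB consensus, the binding site of the transcription factor that drives many inflammatory genes.
*Cxcl1*, chr5:90891145-90891244: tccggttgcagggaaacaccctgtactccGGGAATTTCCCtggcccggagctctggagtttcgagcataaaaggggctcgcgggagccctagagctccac
*Cxcl2*, chr5:90903799-90903898: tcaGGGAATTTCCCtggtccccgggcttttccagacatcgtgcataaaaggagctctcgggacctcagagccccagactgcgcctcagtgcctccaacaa
*Cxcl3*, chr5:90786001-90786100: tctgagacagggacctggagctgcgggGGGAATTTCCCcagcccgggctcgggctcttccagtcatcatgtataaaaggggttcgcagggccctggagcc

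Each stretch of capitals holds a pair of overlapping matches, the first of them starting 71 bases before the start in *Cxcl1*, 97 in *Cxcl2* and 73 in *Cxcl3*. Among the 32851 promoters of the RefSeq table, searched on both strands over the 250 bases before the start, 3.90% held the NF-kappaB consensus. Of the 21 promoters in the table that belong to 20 ligand genes above the floor, 5 held it. The shorter letters GGAATTTCC, which lie inside these matches, were found in 0.286% of promoters. Among the 20 ligand genes they were found in *Cxcl1*, *Cxcl2*, *Cxcl3* and *Cxcl10*. The promoters of *Cxcl1*, *Cxcl2* and *Cxcl3* are shown because they hold such letters, so this share does not measure how unusual the matches are. A match describes letters only and does not show that a factor was bound in these cells.

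The other ELR ligands had lower differences. *Ppbp*, the precursor of platelet basic protein, had a level of 7.87 in mTAMs, 8.79 in pTAMs and 6.20 in BMDM. It was 3.18-fold higher in mTAMs and 6.02-fold higher in pTAMs than in BMDM. *Cxcl5*, which epithelial cells are known to make, had a level of 5.27 in mTAMs, 6.24 in pTAMs and 4.59 in BMDM. It passed the floor in pTAMs only, where it was at least 1.92-fold higher than in BMDM. *Cxcl15*, known in the mouse as lungkine and made by lung epithelium, had a level of 5.37 in mTAMs, 4.06 in pTAMs and 3.56 in BMDM. It passed the floor in mTAMs alone and by 0.07 log2 units, which makes it the ligand with the lowest peak among those counted. Against the floor its excess in mTAMs over pTAMs and over BMDM was at least 1.05-fold. The lung epithelium marker *Scgb1a1* had 12.17 in mTAMs, 4.21 in pTAMs and 4.12 in BMDM, whereas 4 of the 6 markers of that list differed by less than 2-fold between mTAMs and pTAMs.

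*Cxcr2*, the receptor of the ELR ligands, had a level of 11.32 in mTAMs, 8.18 in pTAMs and 5.14 in BMDM. The order was the same as that of *Cxcl1* and *Cxcl2*, highest in mTAMs and lowest in BMDM. Neutrophils carry this receptor, and their markers moved in the same order: *Csf3r*, the G-CSF receptor, had 12.52 in mTAMs, 10.02 in pTAMs and 6.28 in BMDM. The part of neutrophil RNA in the levels of *Cxcl1*, *Cxcl2* and *Cxcl3* was not tested.

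The interferon-induced ligands were also higher on both TAM arrays than in BMDM. *Cxcl9* had a level of 10.56 in mTAMs, 10.82 in pTAMs and 3.40 in BMDM. The BMDM value lay below the floor, so that it was at least 38.3-fold higher in mTAMs and at least 45.9-fold higher in pTAMs on this probe set. *Cxcl10* had a level of 9.63 in mTAMs, 10.03 in pTAMs and 7.76 in BMDM, a 3.66-fold and a 4.82-fold excess over BMDM. *Cxcl11* had a level of 8.64 in mTAMs, 9.79 in pTAMs and 6.36 in BMDM. It was 4.86-fold higher in mTAMs and 10.8-fold higher in pTAMs than in BMDM. It was 2.22-fold lower in mTAMs than in pTAMs. All 3 ligands ran in the same order, with pTAMs first, but for *Cxcl9* and *Cxcl10* mTAMs and pTAMs differed by only -0.26 and -0.40.

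The promoter of *Cxcl10* is shown because it held letters of both the interferon and the NF-kappaB pathway. The stretch is from RefSeq, GRCm38.p6, minus strand, and covers bases 230 to 81 before the start. The first run of capitals matches GAAANNGAAA, the letters bound by interferon-regulated factors, which 2.98% of all promoters held. The other runs of capitals match the NF-kappaB consensus.
*Cxcl10*, chr5:92348970-92349119: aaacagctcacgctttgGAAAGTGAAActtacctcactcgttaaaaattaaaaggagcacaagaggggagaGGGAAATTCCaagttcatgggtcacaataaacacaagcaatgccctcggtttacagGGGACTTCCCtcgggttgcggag

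Among the 20 ligand genes with a promoter in the table, GAAANNGAAA was also found in that of *Cxcl14*, and the NF-kappaB consensus in that of *Ccl9*. *Ccl9* was called higher in neither mTAMs nor pTAMs than in BMDM.

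The receptor *Cxcr3* had a level of 6.49 in mTAMs, 6.11 in pTAMs and 6.81 in BMDM, a spread of less than 2-fold. *Ifng*, the gene of interferon gamma, had 3.18 on all 3 arrays, below the floor. *Irf1*, a transcription factor induced by interferon, had 11.62 in mTAMs, 11.38 in pTAMs and 9.05 in BMDM. In the same order, *Ifngr1* had 11.00 in mTAMs, 10.50 in pTAMs and 9.37 in BMDM. So did *Ifngr2* and *Irf9* run, by less than 2-fold. Not all genes of that list shared this order. *Irf7* was highest in BMDM, with 10.15 in mTAMs, 10.36 in pTAMs and 11.04 in BMDM. *Stat2* and *Irf9* differed from BMDM by less than 2-fold on both TAM arrays. Of the 8 interferon inputs compared, 2 were higher in mTAMs than in BMDM, where 11.5% of all genes were, and 3 were higher in pTAMs than in BMDM, where 8.78% of all genes were. Between mTAMs and pTAMs, 0 of 8 were higher and 1 was lower, where 5.36% and 2.58% of all genes were. The lower gene was *Irf8*, with 9.82 in mTAMs and 10.88 in pTAMs.

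The remaining CXC ligands went different ways. *Cxcl13*, which draws B cells through *Cxcr5*, had a level of 8.51 in mTAMs, 5.58 in pTAMs and 5.66 in BMDM. It stood out in mTAMs alone, 7.62-fold higher than in pTAMs and 7.21-fold higher than in BMDM, and its values in pTAMs and BMDM were close to the floor. *Cxcr5* itself stayed below the floor on every array. *Cxcl14*, a ligand made by epithelium and fibroblasts as well as macrophages, had 8.29 in mTAMs, 10.31 in pTAMs and 9.33 in BMDM. It was lowest in mTAMs, 4.06-fold lower than in pTAMs and 2.06-fold lower than in BMDM. The call against BMDM was lost under quantile normalization, at -0.98, under cyclic loess normalization, at -0.84, and when all probe sets were averaged, at -0.91. *Pf4*, platelet factor 4, which macrophages also express, had a level of 10.62 in mTAMs, 12.40 in pTAMs and 12.19 in BMDM. It too was lowest in mTAMs, 3.43-fold lower than in pTAMs and 2.97-fold lower than in BMDM. The 8 platelet or megakaryocyte markers had nearly equal summed levels of 516.2 in mTAMs, 502.2 in pTAMs and 514.6 in BMDM. None of the 5 compared was called in any comparison. Of these markers, *Itga2b* (7.31), *Gp9* (6.34) and *Gp6* (4.52) had the same value on all 3 arrays. The sums therefore cannot show whether platelet RNA differed, and its part in *Pf4* was not tested.

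*Cxcl16*, a membrane-bound ligand of *Cxcr6* that also takes up oxidized lipoprotein, had a level of 10.53 in mTAMs, 11.40 in pTAMs and 8.71 in BMDM. It was 3.53-fold higher in mTAMs and 6.45-fold higher in pTAMs than in BMDM. *Cxcl17*, a ligand of mucosal tissue, had 6.62 in mTAMs, 6.62 in pTAMs and 6.40 in BMDM, which are nearly the same value.

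The monocyte-attracting CC ligands split. *Ccl2*, the main ligand of *Ccr2*, had a level of 10.26 in mTAMs, 11.66 in pTAMs and 12.65 in BMDM. It was lowest in mTAMs and highest in BMDM, and was 5.24-fold lower in mTAMs than in BMDM and 2.64-fold lower than in pTAMs. *Ccl7*, another *Ccr2* ligand, had 8.88 in mTAMs, 10.39 in pTAMs and 10.78 in BMDM, in the same order. It was 3.73-fold lower in mTAMs than in BMDM and 2.85-fold lower than in pTAMs. In pTAMs minus BMDM, *Ccl2* differed by -0.99 and *Ccl7* by -0.39, neither reaching 2-fold.

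The other members of the group ran the opposite way against BMDM. *Ccl8*, which acts on *Ccr8* in the mouse, had a level of 10.07 in mTAMs, 10.72 in pTAMs and 5.90 in BMDM. It was 18.0-fold higher in mTAMs and 28.2-fold higher in pTAMs than in BMDM. *Ccl12*, a mouse ligand of *Ccr2*, had 9.99 in mTAMs, 11.99 in pTAMs and 8.45 in BMDM. It was 2.91-fold higher in mTAMs and 11.6-fold higher in pTAMs than in BMDM. It was 4.00-fold lower in mTAMs than in pTAMs. The 4 genes lie in 1 row on mouse chromosome 11, interrupted by *Ccl11*. Against BMDM, the neighbours *Ccl2* and *Ccl7* had lower values on both TAM arrays, and *Ccl12* and *Ccl8* at the other end had higher ones. All 4 were lower in mTAMs than in pTAMs, although *Ccl8* at -0.65 fell short of 2-fold. The receptor *Ccr2* had 11.34 in mTAMs, 12.27 in pTAMs and 10.83 in BMDM, and the 4 monocyte markers had summed levels of 11971.1, 17847.6 and 2204.2.

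**Figure D2:**
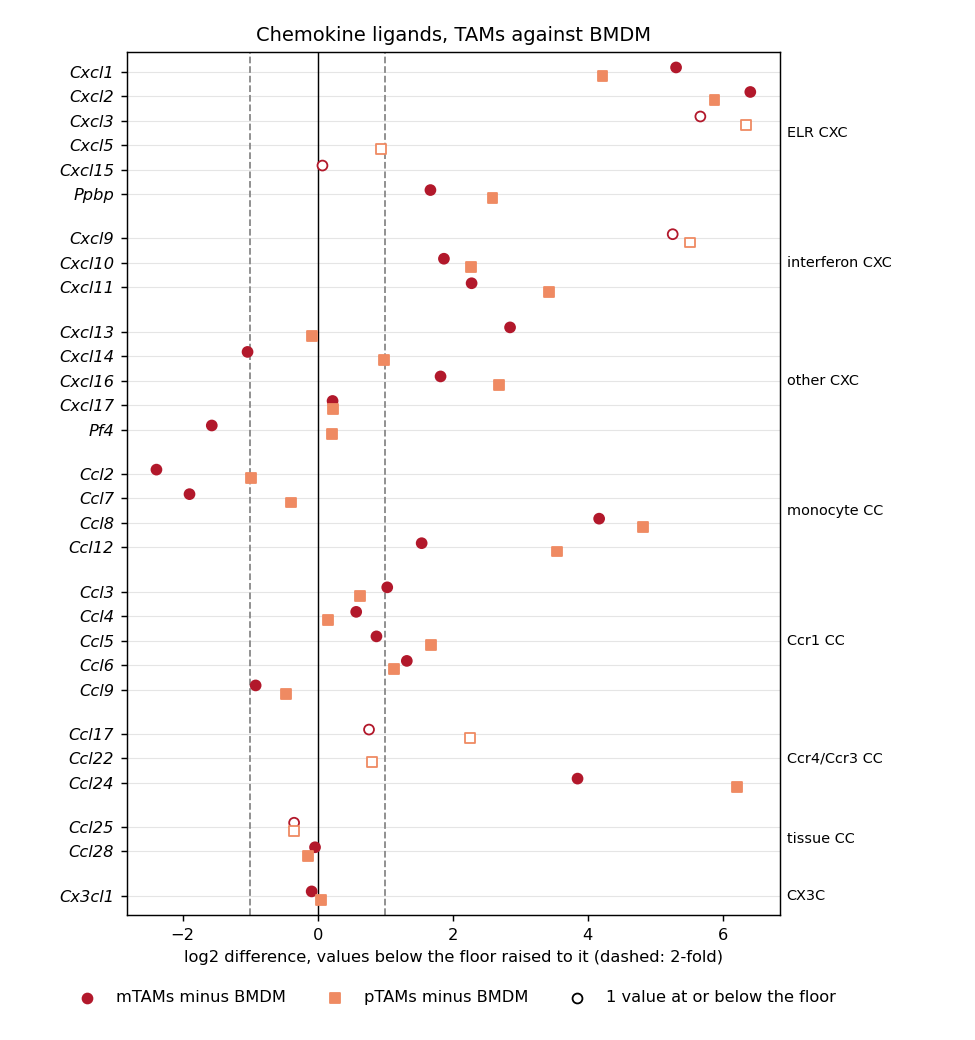
Log2 difference of each chemokine ligand in mTAMs minus BMDM (circles) and pTAMs minus BMDM (squares), with lower values set to the floor, open symbols where 1 of the values lay at or below the floor and dashed lines at 2-fold. *Ccl2* and *Ccl7* lie left of 0, while *Ccl8* and *Ccl12* of the same group lie right of it.

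The CC ligands of *Ccr1* and related receptors had smaller differences. Of the 5, 2 were called higher in mTAMs than in BMDM and 2 in pTAMs, where 11.5% and 8.78% of all genes were. *Ccl3*, an inflammatory ligand that macrophages make on stimulation, had a level of 12.00 in mTAMs, 11.60 in pTAMs and 10.97 in BMDM. *Ccl4*, made along with *Ccl3* by stimulated macrophages, had 11.34 in mTAMs, 10.92 in pTAMs and 10.77 in BMDM. Both were highest in mTAMs and lowest in BMDM, but *Ccl3* alone reached 2-fold, at 2.04-fold higher in mTAMs than in BMDM. That call was lost with the medians of the arrays made equal, at 0.96, and under quantile normalization, at 0.99. *Ccl5*, which draws T cells and monocytes, had a level of 8.18 in mTAMs, 8.99 in pTAMs and 7.31 in BMDM. It was 3.20-fold higher in pTAMs than in BMDM. The difference of 0.87 in mTAMs minus BMDM fell short of 2-fold. *Ccl6*, a mouse ligand of *Ccr1*, had 13.45 in mTAMs, 13.26 in pTAMs and 12.13 in BMDM. It was 2.50-fold higher in mTAMs and 2.19-fold higher in pTAMs than in BMDM. *Ccl9*, also a mouse ligand of *Ccr1*, ran the other way, with 12.41 in mTAMs, 12.86 in pTAMs and 13.33 in BMDM, but reached 2-fold in no comparison on the probe set used. Its other probe set gave -1.02 in mTAMs minus BMDM. The median difference of the 5 genes was 0.87 in mTAMs minus BMDM, 0.63 in pTAMs minus BMDM and 0.19 in mTAMs minus pTAMs. The receptor *Ccr1* had a level of 12.28 in mTAMs, 12.03 in pTAMs and 8.20 in BMDM, so that the receptor differed more between TAMs and BMDM than these ligands did.

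The ligands listed for *Ccr4* and *Ccr3* that passed the floor, *Ccl17*, *Ccl22* and *Ccl24*, were all highest in pTAMs. *Ccl24*, an eosinophil attractant that acts on *Ccr3*, had a level of 9.74 in mTAMs, 12.10 in pTAMs and 5.89 in BMDM. It was 14.4-fold higher in mTAMs and 74.0-fold higher in pTAMs than in BMDM. In mTAMs it was 5.13-fold lower than in pTAMs, which was the lowest difference of any ligand between mTAMs and pTAMs. *Ccl17*, a ligand of *Ccr4* that macrophages make in response to IL-4, had 6.06 in mTAMs, 7.55 in pTAMs and 4.84 in BMDM. The BMDM value lay below the floor, and it was at least 1.69-fold higher in mTAMs and at least 4.76-fold higher in pTAMs. In mTAMs it was 2.81-fold lower than in pTAMs. *Ccl22*, the other ligand of *Ccr4*, had a level of 5.11 in mTAMs, 6.11 in pTAMs and 4.94 in BMDM. It passed the floor in pTAMs only, and against the floor it was at least 1.75-fold lower in mTAMs than in pTAMs. *Ccr4* and *Ccr3* were below the floor on every array. The 6 dendritic cell markers had summed levels of 705.9 in mTAMs, 973.8 in pTAMs and 217.8 in BMDM, resting mainly on *Fscn1*. Of the 4 compared between mTAMs and pTAMs, 0 were called higher or lower. The part of dendritic cell RNA in *Ccl17*, *Ccl22* and *Ccl24* was not tested.

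The remaining ligands showed little. *Ccl25*, known from thymus and gut, had 5.27 in mTAMs, 5.27 in pTAMs and 5.65 in BMDM. *Ccl28*, a ligand of mucosal tissue, had 5.44 in mTAMs, 5.33 in pTAMs and 5.48 in BMDM, just above the floor. *Cx3cl1*, the membrane-bound ligand fractalkine, had 6.42 in mTAMs, 6.56 in pTAMs and 6.51 in BMDM. None of these ligands reached 2-fold in any comparison. The 6 members that stayed at or below the floor on all arrays were *Ccl1*, *Ccl11*, *Ccl20*, *Ccl27a*, *Cxcl12* and *Xcl1*. The highest value among them was 5.07, that of *Cxcl12*, and the lowest peak of a ligand that passed was 5.37, that of *Cxcl15*. *Ccl1*, *Ccl20* and *Xcl1* had the same value on all 3 arrays, as did 21.4% of all probe sets.

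Between mTAMs and pTAMs, the ligands that reached 2-fold were mostly lower in mTAMs. Of 28 ligands compared, 9 were lower in mTAMs, 32.1%, where 2.58% of all 11801 genes compared were. Only 3 ligands, *Cxcl1*, *Cxcl13* and *Cxcl15*, were higher, 10.7%, against 5.36% of all genes. The ligands' median difference was -0.66, and that of all genes was -0.06. *Cxcl15* and *Ccl22* owed their calls to a value below the floor, and with such values set to 5.3 there were 2 higher and 8 lower ligands. The 9 lower ligands came from the monocyte-attracting group (*Ccl2*, *Ccl7*, *Ccl12*), the *Ccr4* and *Ccr3* group (*Ccl17*, *Ccl22*, *Ccl24*) and the CXC ligands *Cxcl11*, *Cxcl14* and *Pf4*. By group, the median was -1.46 for the monocyte-attracting CC ligands, -1.49 for the *Ccr4* and *Ccr3* ligands, -0.40 for the interferon-induced ligands, -0.07 for the ELR ligands and 0.19 for the ligands of *Ccr1* and related receptors. Among all genes, calls ran the other way, with 633 higher and 304 lower in mTAMs.

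**Figure D3:**
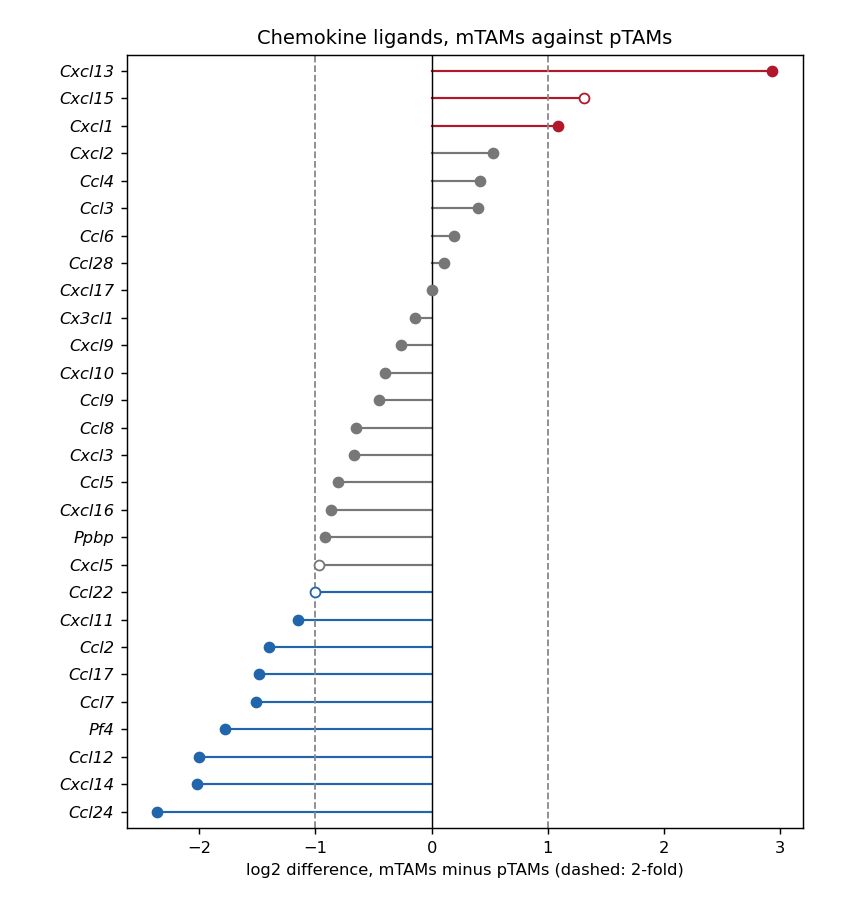
Log2 difference in mTAMs minus pTAMs for the 28 chemokine ligands above the floor on either array, with dashed lines at 2-fold and open circles where 1 of the values lay at or below the floor. *Cxcl13* at 2.93 and *Ccl24* at -2.36 are the extremes, with 9 ligands at or beyond 2-fold on the left and 3 on the right.

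Several ligands were read by more than 1 probe set, which gives the only check on a value within these arrays. For *Cxcl13* the other probe set gave levels of 9.43 in mTAMs, 4.90 in pTAMs and 4.46 in BMDM, so that mTAMs again stood alone. Its differences there were 4.53 in mTAMs minus pTAMs and 4.97 in mTAMs minus BMDM, both against values below the floor. On the probe set used they were 2.93 and 2.85. For *Cxcl14* the other probe set gave 6.84 in mTAMs, 8.63 in pTAMs and 7.61 in BMDM, the same order. The difference of -0.77 in mTAMs minus BMDM missed 2-fold. For *Cxcl16* it gave 9.41 in mTAMs, 10.53 in pTAMs and 7.70 in BMDM, and a difference of -1.12 in mTAMs minus pTAMs that passed it. The other probe set of *Cxcl11* stayed below the floor on every array. The sizes for *Cxcl9* and *Cxcl1* also depended on the probe set. For *Cxcl9* the other probe set gave 6.83 in mTAMs, 7.02 in pTAMs and 5.87 in BMDM, with differences against BMDM of 0.96 in mTAMs and 1.15 in pTAMs, far below the bounds given above. *Cxcl1* had differences in mTAMs minus BMDM of 5.31 on the probe set used and 5.88 and 2.28 on the others, and in mTAMs minus pTAMs of 1.09, 1.07 and 0.86. Its direction was the same on all 3 probe sets, but the last of these values missed 2-fold. Over all ligands, the SD between probe sets of a gene was 1.71 in mTAMs minus BMDM (9 genes), 1.72 in pTAMs minus BMDM (8 genes) and 0.40 in mTAMs minus pTAMs (8 genes). Over all genes it was 0.52, 0.43 and 0.28. It does not cover variation between animals, sorts or arrays.

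**Figure D4:**
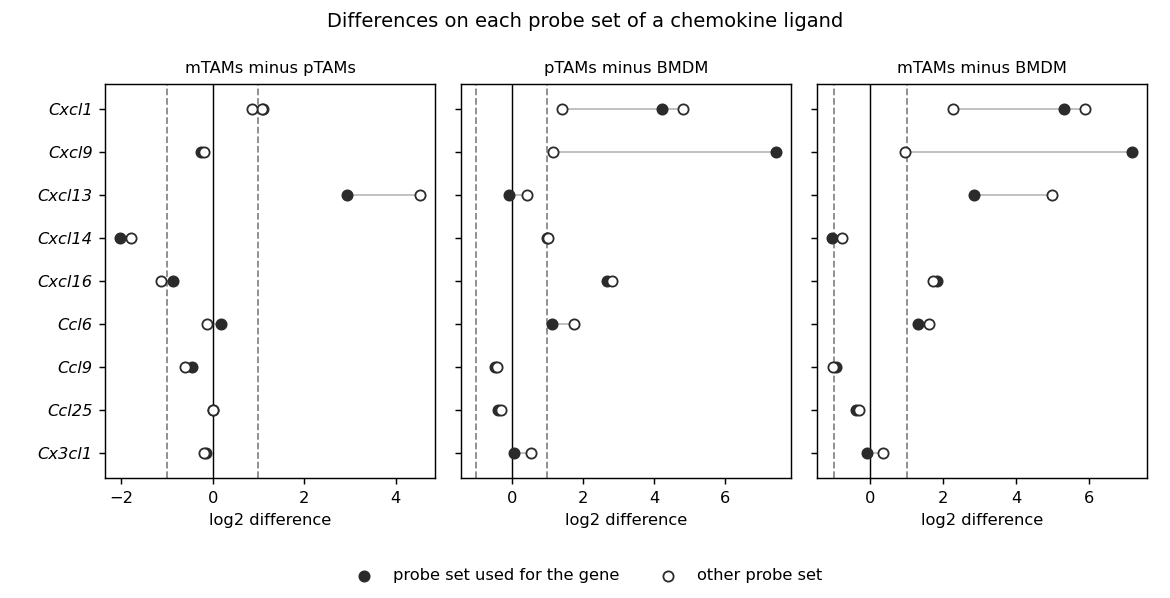
Log2 differences on each probe set above the floor for the 9 chemokine ligands with several such probe sets, in mTAMs minus pTAMs, pTAMs minus BMDM and mTAMs minus BMDM, with filled circles for the probe set used and dashed lines at 2-fold. *Cxcl9* and *Cxcl1* have wide gaps against BMDM, of 1.15 to 7.42 and 1.42 to 4.81 in pTAMs, and narrow ones between mTAMs and pTAMs. *Cxcl13* spans 2.93 to 4.53 in mTAMs minus pTAMs.

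Among the receptors and decoys of these ligands, 21 were on the array and 13 were compared. Against BMDM, 5 were higher in mTAMs and 7 in pTAMs, where 11.5% and 8.78% of all genes were, and 0 were lower, where 14.4% and 7.5% of all genes were. *Ccrl2*, which binds the chemoattractant chemerin without signaling, had a level of 12.96 in mTAMs, 11.79 in pTAMs and 6.81 in BMDM. *Cxcr4*, the receptor of *Cxcl12*, had 12.19 in mTAMs, 11.10 in pTAMs and 9.41 in BMDM. Both were highest in mTAMs, as was *Cxcr2*. These 3 were the receptors called higher in mTAMs than in pTAMs, where 5.36% of all genes were. *Ackr3*, a decoy that removes *Cxcl12*, had 7.78 in mTAMs, 10.65 in pTAMs and 3.59 in BMDM. *Cx3cr1*, the receptor of *Cx3cl1* and a marker of monocytes and some resident macrophages, had 9.29 in mTAMs, 10.50 in pTAMs and 8.66 in BMDM. These were the 2 called lower in mTAMs than in pTAMs, where 2.58% of all genes were. The ligands *Cxcl12* and *Cx3cl1* themselves were below the floor or differed by less than 2-fold.

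**Figure D5:**
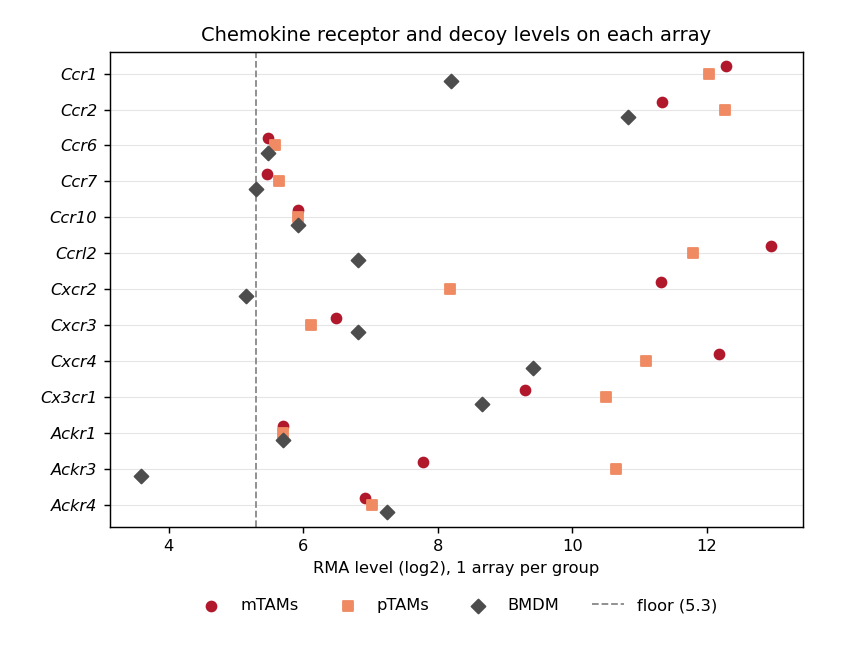
RMA level (log2) of the chemokine receptors and decoys above the floor on at least 1 array, for mTAMs (circles), pTAMs (squares) and BMDM (diamonds), with a dashed line at the floor of 5.3. *Ccr1*, *Ccr2*, *Ccr7*, *Ccrl2*, *Cxcr2*, *Cxcr4*, *Cx3cr1* and *Ackr3* lie right of BMDM on both TAM arrays. Highest in pTAMs are *Ccr2*, *Cx3cr1* and *Ackr3* and, close to the floor, *Ccr6* and *Ccr7*.

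The genes that feed NF-kappaB or are its feedback targets were mostly higher in TAMs, as were the ELR ligands. Of 15 compared, 12 were higher in mTAMs and 10 in pTAMs than in BMDM, against 11.5% and 8.78% of all genes. Their median differences were 2.28 and 1.58, against -0.11 and -0.05 for all genes. *Il1b*, an inflammatory cytokine, had a level of 14.08 in mTAMs, 13.30 in pTAMs and 5.16 in BMDM. *Nfkbiz*, a nuclear co-factor of NF-kappaB, had 12.55 in mTAMs, 11.07 in pTAMs and 6.60 in BMDM. *Tnfaip3*, a feedback inhibitor, had 12.15 in mTAMs, 10.48 in pTAMs and 7.62 in BMDM. These genes, like *Cxcl1* and *Cxcl2*, were highest in mTAMs and lowest in BMDM. *Tnf* did not follow this order, with 9.83 in mTAMs, 7.62 in pTAMs and 8.37 in BMDM. *Tnf*, *Nfkbiz* and *Tnfaip3* were the 3 of 15 genes called higher in mTAMs than in pTAMs, where 5.36% of all genes were. The list's median there was 0.70. *Cxcl3* and *Cxcl10*, whose promoters also held the NF-kappaB consensus, were highest in pTAMs. The neutrophil markers ran in the same array order as *Il1b*. The part of NF-kappaB and of neutrophil RNA in the ligand levels was not tested.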

How the data were processed

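RNA of mTAMs, pTAMs and BMDM was hybridised to 1 Affymetrix mouse array each. The authors deposited log2 values made with RMA, as the submitters' processing notes state. RMA corrects background, quantile-normalizes the arrays and summarizes each probe set, so a change common to all genes is not visible. Its version is not given in the sources. Values are rounded to 2 decimals.

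Platform annotation gave 1 symbol for 34945 probe sets, several for 932 and none for 9160. Only the first kind was used, so ligands on shared probe sets are not members. For each gene the probe set with the highest mean was taken. The floor of 5.3 was the 95th percentile of 83 olfactory, vomeronasal and taste receptor probe sets. Genes above it on at least 1 of the arrays compared were called at a log2 difference of 1, and folds against values not above it were computed against the floor, as lower bounds. With 1 array per group no test was possible. All members above the floor were named. From other lists, receptors and some of the genes with the largest difference per comparison were named, and a few genes with small differences. Members and lists were chosen with earlier results of these data known. Some genes are not reported here.

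All 35 members matched a RefSeq gene table (GRCm38.p6), used for names and neighbours. Promoters (RefSeq, GRCm38.p6) were searched over 250 bases before the start. The script that makes the calls was tested on simulated data with known differences, which checks its arithmetic and not the calls in these arrays. Alternatives were 3 scalings, other choices of probe set, other floors and a 3-fold threshold. Python 3.11.15, numpy 2.4.6, pandas 2.3.3, matplotlib 3.10.9, R 4.3.3 and limma 3.58.1 were used.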

Additional observations from a re-analysis of the deposited data

How the results depend on the processing

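Of 54 alternative counts of ligands called higher or lower, 50 lay within 1.5 times the count given. Some of these counts had little room to move, as mTAMs and pTAMs had the same median and RMA already includes quantile normalization. With a 3-fold threshold, 1 ligand was higher (*Cxcl13*) and 4 were lower in mTAMs than in pTAMs, and 2 were lower in mTAMs than in BMDM. With the medians of the arrays made equal, 1 ligand was lower in pTAMs than in BMDM (*Ccl2*). Differences of single ligands moved by more than the spread between probe sets in 9 cases with the mean of all probe sets, which took *Cxcl11* to -0.84 in mTAMs minus pTAMs, in 8 cases with low values set to the floor, in 2 without shared probe sets and in 0 under each of the 3 scalings. No called difference changed sign under the alternatives run. *Cx3cl1*, which was not called, did so, from 0.05 in pTAMs minus BMDM to -0.02 with equal medians and under quantile normalization, and from -0.09 in mTAMs minus BMDM to 0.07 with the mean of all probe sets. When values below the floor were set to 5.3, 2 ligands were higher and 8 lower in mTAMs than in pTAMs, 14 were higher and 4 lower in mTAMs than in BMDM, and 14 were higher and 0 lower in pTAMs than in BMDM. No paired analysis was possible because each group has 1 array, and for the same reason none could be left out.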

Other observations

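Enzymes that trim or cleave chemokines differed between the groups as well. Of 11 compared, 5 were higher and 1 was lower in mTAMs than in BMDM, 6 were higher and 0 lower in pTAMs than in BMDM, and 3 were higher and 3 lower in mTAMs than in pTAMs. The shares of all genes called higher and lower were 11.5% and 14.4%, 8.78% and 7.5%, and 5.36% and 2.58% in these comparisons. *Mmp8*, neutrophil collagenase, had a level of 13.09 in mTAMs, 10.44 in pTAMs and 9.14 in BMDM. *Mmp9*, a gelatinase, had 12.21 in mTAMs, 10.82 in pTAMs and 5.41 in BMDM, and the neutrophil protease gene *Ctsg* had 8.07 in mTAMs, 5.18 in pTAMs and 5.40 in BMDM. These 3 were highest in mTAMs, where the neutrophil markers were highest too, and the part of neutrophil RNA in them was not tested. *Mmp12*, macrophage elastase, which is known to cleave chemokines, had 9.55 in mTAMs, 11.91 in pTAMs and 10.69 in BMDM. *Mmp13*, a collagenase, had 8.57 in mTAMs, 11.19 in pTAMs and 8.53 in BMDM, and the membrane-bound *Mmp14* had 8.99 in mTAMs, 10.09 in pTAMs and 5.85 in BMDM. These 3 were highest in pTAMs.

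Of the receptors for cytokines known to induce *Ccl17*, *Ccl22* and *Ccl24*, *Il4ra* had a level of 9.92 in mTAMs, 9.76 in pTAMs and 6.83 in BMDM, and *Csf2rb*, the shared subunit of the GM-CSF receptor, had 12.29 in mTAMs, 11.96 in pTAMs and 9.46 in BMDM. Both differed by less than 2-fold between mTAMs and pTAMs, where *Ccl17* and *Ccl24* were lower in mTAMs. Of the list of IL-4 and GM-CSF inputs, 4 of 5 compared were higher in mTAMs than in BMDM, 2 of 4 in pTAMs than in BMDM and 1 of 5 in mTAMs than in pTAMs, with 0 lower. The shares of all genes called higher are those given for the enzymes. *Il4* itself had 5.57 in mTAMs, 4.21 in pTAMs and 4.04 in BMDM. It is among these calls in mTAMs only through values below the floor, against which it was at least 1.21-fold higher.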
